A study of Mus musculus with 6 samples.

Results

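RNA bound to the PIWI protein MILI in cultured mouse spermatogonial stem cells was set against the total RNA of the same kind of cell. Of the 6 small RNA libraries of the series, 2 make up this comparison, chosen by their labels. The first is the MILI immunoprecipitate (genotype wild type, pulled down with a Millipore antibody against MILI). The second is the untreated wild type library (genotype wild type, total RNA, no NaIO4). The stem cells came from 1 male F1 mouse (C57BL/6 by DBA2), 15 days old, that carried an actin-EGFP transgene, and they were grown on mouse embryonic fibroblast feeders. The strain field of both labels reads C57BL/6. An RNA spike-in is named in the label of the wild type library and not in that of the immunoprecipitate. Values of 2 more libraries, wild type total RNA treated with NaIO4 and untreated total RNA of the knockout mili-/-, are given beside some results as context. The knockout cells were grown from single picked colonies, so that library stands for a clone.

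MILI, encoded by Piwil2, is an Argonaute-family protein of the male germ line that carries small RNAs called piRNAs. Primary piRNAs are cut from long single-stranded transcripts and tend to begin with uridine, written T here. Secondary piRNAs arise when one piRNA guides the cutting of a complementary transcript, and they tend to carry A at position 10, counted from 1 at the 5′ end. In germ cells of young males, many piRNAs come from messenger RNAs, mostly from their 3′ untranslated regions (UTRs). The methyl group that HENMT1 puts on the 3′ end of piRNAs protects them from NaIO4, which oxidises unmethylated 3′ ends.

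Each group had 1 library, so no difference has a replicate check and no p-value is given. Levels are in reads-per-million units (rpm), scaled to the reads of 18 to 35 nt of each library, and ratios are immunoprecipitate over wild type. Intervals are 95% intervals from the read counts. The reads carry no molecular identifiers and need not be independent molecules, so the intervals cover counting error only. The immunoprecipitate held 25240941 reads of 18 to 35 nt and the wild type library 7322408. Thinned to the same number of reads, the immunoprecipitate held 3109505 distinct sequences and the wild type library 1089054. The series has no input or unrelated antibody library for the pull-down, so binding to MILI and unspecific recovery cannot be told apart.

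The sequences below show what was recovered. Each is the most abundant read of at most 30 nt on the longest transcript of its gene, among reads that match that gene alone. The first 7 come from genes among the 12 with the most reads in the immunoprecipitate, the next 3 from genes with the highest ratios, and the last from the non-coding RNA Rmrp, among the lowest. The first 10 are the most abundant in the immunoprecipitate and the last in wild type. The capitals mark positions 1 and 10. Coordinates are on GRCm38, from the GENCODE annotation.
D10Wsu102e 3′ UTR, chr10:83381475-83381501, plus strand: TaactcgagAgaaaaccacacctgatg
Fth1 5′ UTR, chr19:9982739-9982765, plus strand: TtcaacagtGcttgaacggaacccggt
Abl2 3′ UTR, chr1:156646324-156646349, plus strand: TagagatctGcactttgtagttgaag
Tmem245 3′ UTR, chr4:56875806-56875833, minus strand: TcttccgaaGgtccagagttcagatccc
Gm38246 non-coding, chr3:51104459-51104485, plus strand: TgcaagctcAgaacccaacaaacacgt
Trim71 3′ UTR, chr9:114509691-114509718, minus strand: TgagaagtcTccaaacctgtactccgtt
Eif4ebp2 3′ UTR, chr10:61431595-61431623, minus strand: TcactgaacAgcggtctgcacagagcggc
Hist1h2bn coding sequence, chr13:21754124-21754151, plus strand: TgcctgaacCcgctaagtccgctcccgc
Mrpl47 coding sequence, chr3:32736646-32736672, minus strand: TagtaaatcCcaaggacgctgctcact
BC051077 non-coding, chr5:117312711-117312737, minus strand: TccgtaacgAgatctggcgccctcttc
Rmrp non-coding, chr4:43493030-43493059, minus strand: AgctcgctcTgaaggcctgtttcctaggct

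The first 10 of these begin with T and differ in the base at position 10. None of those 10 was read in the knockout mili-/-. The Rmrp sequence begins with A and was read at 2.42 rpm in the immunoprecipitate, at 709 rpm in wild type and at 1469 rpm in the knockout mili-/-. The single D10Wsu102e sequence had 52.1 rpm in the immunoprecipitate and 37.0 rpm in wild type. The Fth1 sequence had 270 rpm in the immunoprecipitate and 31.8 rpm in wild type, a ratio of 8.48 (7.44 to 9.66). The Eif4ebp2 sequence had 33.1 rpm in the immunoprecipitate and 2.32 rpm in wild type, a ratio of 14.2 (8.82 to 23.0). Choosing a sequence by its reads in the immunoprecipitate favours high ratios, so these values only describe the molecules shown.

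The immunoprecipitate held more piRNA-sized RNA and less of the annotated small RNAs than wild type total RNA. Reads called piRNA-like were 25 to 31 nt long and matched no annotated small RNA. They made up 73.8% of the immunoprecipitate and 42.1% of wild type, a ratio of 1.75 (1.75 to 1.75). In the knockout mili-/- they were 12.6% of reads, so this definition also takes in reads present without MILI. Sense reads of protein-coding genes were the largest class among them, with 50.1% of the immunoprecipitate and 22.8% of wild type, a ratio of 2.19. In the knockout mili-/- they were 0.838% of reads, and with NaIO4 41.3%. Long non-coding RNA genes gave 2.25% of the immunoprecipitate and 1.56% of wild type, and pseudogenes gave 0.262% of the immunoprecipitate and 0.169% of wild type. piRNA-like reads that matched no transcript were 19.8% of the immunoprecipitate and 16.7% of wild type, a ratio of 1.19. They were 11.4% of the knockout mili-/- library, most of its piRNA-like reads.

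Part of the unmatched reads carried the internal promoter boxes of transfer RNA genes, and these together had a ratio below 1. Box A and box B were searched on the read strand alone, and unmatched reads that held either made up 2.55% of the immunoprecipitate and 3.65% of wild type. Their ratio was 0.697, and that of the other unmatched reads was 1.32. The most abundant box-bearing sequence, of 29 nt, went the other way, with 5922 rpm in the immunoprecipitate and 517 rpm in wild type. This sequence had 920 rpm after NaIO4 and 23.7 rpm in the knockout mili-/-, and its origin was not tested. It made up 23.3% of the box-bearing reads in the immunoprecipitate and 1.41% in wild type, and the ratio of the other box-bearing reads was 0.542. Without the box-bearing reads the piRNA-like ratio was 1.85.

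The annotated small RNA classes were all lower in the immunoprecipitate. microRNAs, as reads matching annotated hairpins, made up 0.846% of the immunoprecipitate and 19.2% of wild type, which is 22.7-fold lower (22.6 to 22.8). Of these reads, 76.0% were of 20 to 24 nt in the immunoprecipitate and 96.9% in wild type. The class thus also holds reads of other sizes, more so in the immunoprecipitate. Reads of the Mir5099 locus, an annotated hairpin whose reads resisted NaIO4, were 0.0107% of the immunoprecipitate, against 8.01% of wild type and 8.95% with NaIO4. That is 748-fold lower in the immunoprecipitate (720 to 777). Mitochondrial rRNA and tRNA were 68.6-fold lower, snRNA and snoRNA 4.89-fold lower and rRNA 2.25-fold lower. Reads that met none of these definitions, of 18 to 24 or 32 to 35 nt, were 23.6% of the immunoprecipitate and 22.1% of wild type.

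**Figure D1:**
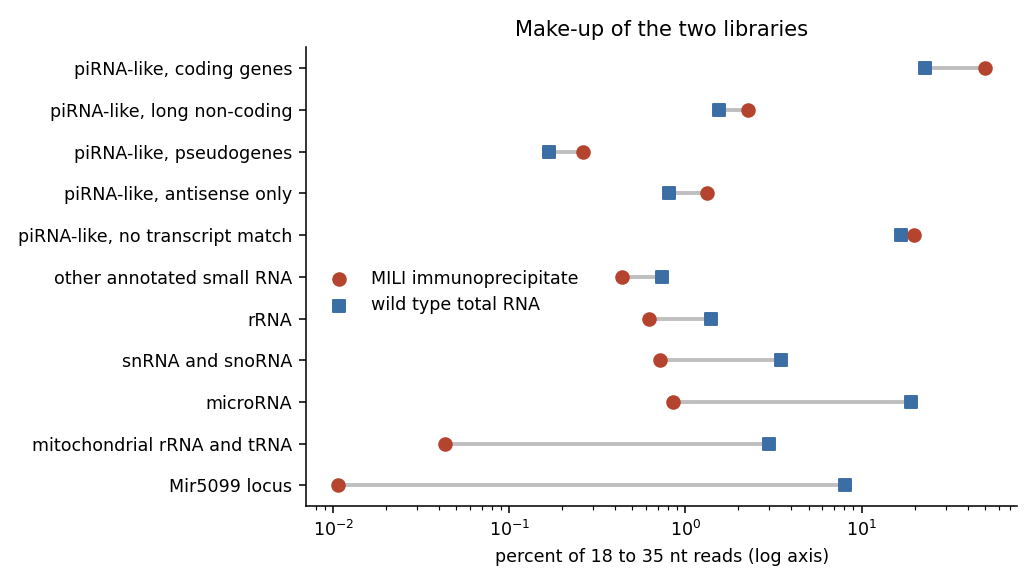
Share of 18 to 35 nt reads (percent, log axis) in each class, with circles for the MILI immunoprecipitate and squares for wild type total RNA, 1 library each. All 5 piRNA-like classes lie higher in the immunoprecipitate and the 6 annotated small RNA classes lower, most of all the Mir5099 locus with 0.0107% against 8.01%.

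Across genes, nearly every source of piRNA-like reads stood higher in the immunoprecipitate. Reads that matched a single gene in the sense were 40.1% of the immunoprecipitate and 19.2% of wild type. They came from 22798 genes, of which 4747 reached a mean of 10 rpm over both libraries and were compared, 4589 of them protein-coding, 140 long non-coding and 18 pseudogenes. These held 88.5% of the single-gene reads of the immunoprecipitate and 89.2% of those of wild type. The mean let a gene pass through 1 library alone, so genes under 10 rpm in wild type passed only with a ratio above 1. This favours high ratios among genes low in wild type, here and in the lists and named genes below. The median gene ratio was 2.24 (2.22 to 2.26), 1.16 on the log2 scale, and 97.9% of the genes were above 1. In the knockout mili-/-, 4702 of the 4747 had under 5 rpm. From the lowest to the highest, the 5th, 25th, 75th and 95th percentiles were 1.27, 1.84, 2.74 and 3.82. By the 2-fold rule, 3124 genes (65.8%) were higher and 24 (0.506%) were lower.

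These counts rest on the scale. Scaled to the single-gene piRNA-like reads of each library, the median gene ratio was 1.07, and 145 genes were higher by the 2-fold rule and 110 lower. On the log2 scale that moved the median by -1.06. Set against the median gene, 98 genes (2.06%) were at least 2-fold above it and 140 (2.95%) at least 2-fold below it. With each distinct sequence counted once at equal depth, the median was 1.36, with 939 genes higher and 47 lower by that rule. The order of genes was much the same in both libraries. Spearman's rho of rpm over the 4747 genes was 0.868, as a description of genes that share both libraries. Of the 100 genes with the most reads in each library, 83 were shared. The 12 leading genes held 7.55% of the single-gene reads in the immunoprecipitate and 8.70% in wild type.

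The 12 genes with the most reads in the immunoprecipitate, ranked by reads and not per length, included D10Wsu102e, Fth1, Abl2, Tmem245, Gm38246, Rab11fip4, Gabpb2, Trim71, Eif4ebp2, Cbx5 and Fbxo41. D10Wsu102e, which the annotation lists as protein-coding, led both libraries with 6358 rpm in the immunoprecipitate and 4095 rpm in wild type, a ratio of 1.55 (1.53 to 1.57). Its reads began almost wholly in the annotated 3′ UTR, 99.6% of them in the immunoprecipitate and 99.7% in wild type. Fth1, which encodes the heavy chain of the iron store ferritin, had 3392 rpm in the immunoprecipitate and 902 rpm in wild type, a ratio of 3.76 (3.67 to 3.86). In the immunoprecipitate only 4.55% of its reads began in the 3′ UTR, against at least 90.9% (Fbxo41) for each of the other coding genes of the 12. Its reads began in the 5′ UTR for 44.2% in the immunoprecipitate and 23.6% in wild type, and in the coding sequence for 51.2% in the immunoprecipitate and 69.9% in wild type.

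The other leading genes had ratios between 1.14 and 2.95. Eif4ebp2, a repressor of cap-dependent translation, had 1817 rpm in the immunoprecipitate and 617 rpm in wild type (2.95). Trim71, an RNA-binding ubiquitin ligase of stem cells, had 2017 rpm in the immunoprecipitate and 752 rpm in wild type (2.68). Gabpb2, a subunit of the GABP transcription factor, had 2134 rpm in the immunoprecipitate and 881 rpm in wild type (2.42). Cbx5, the heterochromatin protein HP1 alpha, had 1810 rpm in the immunoprecipitate and 827 rpm in wild type (2.19). Abl2, a tyrosine kinase, had 2417 rpm in the immunoprecipitate and 1356 rpm in wild type (1.78). Lowest of the 12 was the long intergenic RNA Gm38246, with 2259 rpm in the immunoprecipitate and 1982 rpm in wild type, a ratio of 1.14 (1.12 to 1.16). In the knockout mili-/- the 12 genes had between 0.208 and 7.90 rpm.

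The highest ratios belonged mostly to genes with few wild type reads, so their intervals are wide. These genes and those with the lowest ratios were picked by the ratio itself, and their values are a description. Hist1h2bl, an H2B histone gene, had 35.5 rpm in the immunoprecipitate and 2.05 rpm in wild type, a ratio of 17.3 (10.4 to 28.8). Hist1h2bn, of the same family, had 61.5 rpm in the immunoprecipitate and 4.10 rpm in wild type, a ratio of 15.0 (10.46 to 21.6). One 5′ end held 95.4% of the Hist1h2bl reads and 94.7% of the Hist1h2bn reads in the immunoprecipitate. Copies of these genes are nearly identical, so their single-gene reads come only from the stretches that differ. The other 8 in order were Ankrd63, Cox7c, Mcm10, Mrpl47, Nav1, BC051077, Efcab10 and Mboat2, with ratios between 12.8 and 6.997. BC051077, a long intergenic RNA, was the best covered of them, with 320 rpm in the immunoprecipitate and 44.7 rpm in wild type, a ratio of 7.17 (6.42 to 8.01). All 10 had at most 1.04 rpm in the knockout mili-/-.

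The lowest ratios were those of mitochondrial transcripts and of a few abundant fragments that also filled the knockout mili-/- library. All 7 mitochondrial mRNAs compared were at least 2-fold lower, with ratios from 0.00699 to 0.0446. mt-Co1, a subunit of cytochrome c oxidase, had 2.54 rpm in the immunoprecipitate, 285 rpm in wild type and 253 rpm in the knockout mili-/-. Rmrp, the RNA of the RNase MRP complex, had 17.9 rpm in the immunoprecipitate, 887 rpm in wild type and 1881 rpm in the knockout mili-/-. Rpl5 had 2.34 rpm in the immunoprecipitate, 165 rpm in wild type and 424 rpm in the knockout mili-/-, and Rpl13 had 6.66, 117 and 213 rpm in the same order. Their wild type reads were of 9 and 14 distinct sequences, and 0.413% and 1.17% of them lay on the longest coding transcript. In the immunoprecipitate 62.7% of the Rpl5 reads and 91.7% of the Rpl13 reads lay on it. Of the 24 genes at least 2-fold lower, 15 had more rpm in the knockout mili-/- than in the immunoprecipitate, against 19 of all 4747. Their median share of reads that begin with T was 67.9% in the immunoprecipitate and 32.2% in wild type, against 86.3% and 83.5% over all genes compared.

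A second kind of gene with a low ratio had at most 2.91 rpm (Vmn1r76) in the knockout mili-/-. Genes of olfactory and vomeronasal receptors (symbols Olfr and Vmn, picked out after their values were seen) numbered 11 among those compared. Of these, 5 were at least 2-fold lower, beside 0.506% of all genes, and their median ratio was 0.748. Olfr839-ps1 had 14.7 rpm in the immunoprecipitate and 63.6 rpm in wild type, with 125 rpm after NaIO4 and 0.832 rpm in the knockout mili-/-. Vmn1r18 had 23.3 rpm in the immunoprecipitate and 59.0 rpm in wild type, with 128 rpm after NaIO4. Olfr889 went the other way, with 148 rpm in the immunoprecipitate and 30.3 rpm in wild type. Olfr1372-ps1, the most read of them, had 275 rpm in the immunoprecipitate and 197 rpm in wild type. Members of these receptor families are similar to one another, and reads shared between genes are not in these values.

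**Figure D2:**
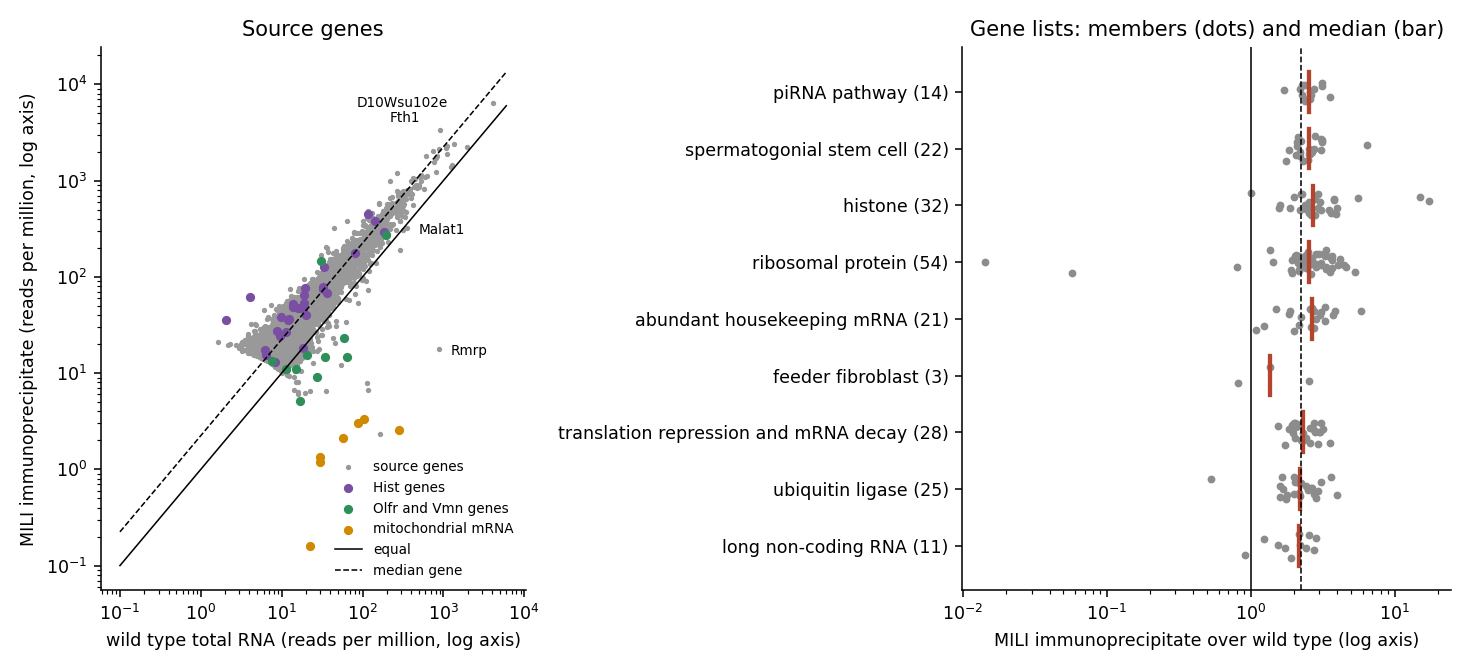
Left, each source gene by its level in the MILI immunoprecipitate (vertical) and in wild type total RNA (horizontal), in rpm on log axes, with the line of equality and a dashed line at the median ratio of 2.24; colours mark Hist, Olfr and Vmn, and mitochondrial genes. Right, the ratio of each member of 9 gene lists on a log axis (dots, number of members in brackets), with a bar at the list's median and dashed and solid lines at 2.24 and 1. Most lists centre near the dashed line, while mitochondrial mRNAs, Rmrp, Rpl5 and Rpl13 lie far below equality.

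Among the gene lists, the genes of the piRNA pathway gave piRNA-like reads to both libraries. Of 27 in the annotation 14 were compared, and 13 of the 14 were at least 2-fold higher, beside 65.8% of all genes. Their median ratio was 2.56, beside 2.24 over all genes. Several had under 10 rpm in wild type and passed the filter through the immunoprecipitate, which favours high ratios. Gtsf1, for one, had 15.6 rpm in the immunoprecipitate and 4.37 rpm in wild type. None of the 14 was 2-fold above the median gene. The median was 1.23 when both libraries were scaled to single-gene reads, beside 1.07 over all genes, and 1.49 by distinct sequences, beside 1.36. Piwil2, which encodes MILI, had 83.5 rpm in the immunoprecipitate and 32.2 rpm in wild type, a ratio of 2.59 (2.26 to 2.96), and no read in the knockout mili-/-. The helicase gene Mov10l1, needed for the cutting of piRNA precursors, had 88.4 rpm in the immunoprecipitate and 37.3 rpm in wild type (2.37), and 93.9% of its reads in the immunoprecipitate began in the coding sequence. Mael, a germ granule protein, had 41.005 rpm in the immunoprecipitate and 18.2 rpm in wild type (2.26). Wdr77, the partner of the arginine methyltransferase PRMT5, was the one member under 2-fold, with 43.1 rpm in the immunoprecipitate and 25.1 rpm in wild type (1.71).

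Stem cell genes had a similar median. Of the 39 spermatogonial stem cell genes 22 were compared, 20 were at least 2-fold higher, beside 65.8% of all genes, and none was 2-fold lower, with a median of 2.53. Only 1 of the 22 was 2-fold above the median gene. Scaled to single-gene reads the median was 1.21, and by distinct sequences it was 1.44. Ccnd2, a cyclin of dividing spermatogonia, had 754 rpm in the immunoprecipitate and 275 rpm in wild type (2.74). Zbtb16, the PLZF repressor that upholds stem cell renewal, had 82.4 rpm in the immunoprecipitate and 26.8 rpm in wild type (3.08). Lhx1, a homeobox gene downstream of GDNF, had the highest ratio of the list with 24.4 rpm in the immunoprecipitate and 3.82 rpm in wild type, 6.38 (4.37 to 9.32). Sall4, a zinc finger factor of the same cells, had 58.0 rpm in the immunoprecipitate and 32.8 rpm in wild type (1.77), and Nanos3 had 16.6 and 9.01 rpm in that order (1.84).

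Histone, ribosomal protein and housekeeping genes also had medians above that of all genes by reads. By distinct sequences at equal depth, scaled to those of each library, the medians of the histone and ribosomal protein lists lay under 1. That is a lower share of the distinct sequences of the immunoprecipitate, not a lower number of them. The filter was applied anew to these counts, so the members compared can differ. Of 32 histone genes compared, 28 were at least 2-fold higher, beside 65.8% of all genes, and none 2-fold lower, with a median of 2.73, against 0.898 by distinct sequences. H3f3a, which encodes the replacement histone H3.3, had 201 rpm in the immunoprecipitate and 36.1 rpm in wild type, a ratio of 5.56. Hist1h2ba, the testis form of H2B, had 18.4 rpm in the immunoprecipitate and 18.4 rpm in wild type (0.997). Of 54 ribosomal protein genes compared, 46 were at least 2-fold higher, beside the same 65.8%, and 2 were 2-fold lower, the named Rpl5 and Rpl13. The median was 2.54 by reads, against 0.990 by distinct sequences. Rpl4 had 1190 rpm in the immunoprecipitate and 267 rpm in wild type (4.46), and Rps15 had 1003 rpm in the immunoprecipitate and 217 rpm in wild type (4.63). Pseudogene copies of ribosomal protein genes share reads with them, and shared reads are not in these values.

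Of 21 abundant housekeeping genes compared, 16 were at least 2-fold higher, beside 65.8% of all genes, and 1 was 2-fold above the median gene, with a median of 2.66 by reads and 1.30 by distinct sequences. Ftl1, the ferritin light chain, had 380 rpm in the immunoprecipitate and 65.1 rpm in wild type (5.83), with 93.8% of its reads in the immunoprecipitate from the 5′ UTR. The 5′ UTR of both ferritin mRNAs is known to carry the iron-responsive element, a hairpin that regulates their translation. The cytoskeletal gene Actb had 23.9 rpm in the immunoprecipitate and 11.1 rpm in wild type (2.16).

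Regulators of RNA and of protein turnover were close to all genes. Of 28 genes of translation repression and mRNA decay, 22 were at least 2-fold higher, beside 65.8% of all genes, with a median of 2.29. Ago2, the slicing Argonaute of the microRNA pathway, had 342 rpm in the immunoprecipitate and 147 rpm in wild type (2.32). Xrn1, a 5′ to 3′ exonuclease, had 112 rpm in the immunoprecipitate and 72.9 rpm in wild type (1.54). Of 25 ubiquitin ligase genes, 17 were at least 2-fold higher, beside the same 65.8%, with a median of 2.22. Cbl had 1580 rpm in the immunoprecipitate and 774 rpm in wild type (2.04), while Cul4a, a cullin scaffold, had 12.9 rpm in the immunoprecipitate and 24.4 rpm in wild type (0.527).

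Of 11 genes on the long non-coding list, 10 were annotated as non-coding. Of those 10, 6 were at least 2-fold higher, beside 65.8% of all genes, with a median of 2.18. The other, D10Wsu102e, is annotated as protein-coding and stands among the leading genes above. Malat1, a nuclear RNA, had 321 rpm in the immunoprecipitate and 352 rpm in wild type, a ratio of 0.912 (0.873 to 0.954), and 738 rpm after NaIO4. Kcnq1ot1, also nuclear, had 16.1 rpm in the immunoprecipitate and 13.1 rpm in wild type (1.23). Gas5, the host of several snoRNAs, had 83.8 rpm in the immunoprecipitate and 30.6 rpm in wild type (2.74). Over all 140 long non-coding genes compared the median was 2.01, beside 2.25 over the protein-coding ones.

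Feeder fibroblast genes gave few piRNA-like reads. Of 36 in the annotation 3 were compared, with a median of 1.36, which turned to 0.649 when scaled to single-gene reads and to 0.835 by distinct sequences. Timp1, a protease inhibitor, had 32.8 rpm in the immunoprecipitate and 13.0 rpm in wild type (2.53). Pdgfra, a growth factor receptor, had 37.4 rpm in the immunoprecipitate and 27.6 rpm in wild type (1.36). Fn1, which encodes fibronectin, had 14.46 rpm in the immunoprecipitate and 17.8 rpm in wild type (0.815). Summed over all 36, the list had 117 rpm in the immunoprecipitate, with 10 members at no read, and 94.5 rpm in wild type, with 13 at no read. In such bulk RNA, fewer fibroblasts and less RNA in each cannot be told apart, and the part of feeder RNA in the ratios was not tested.

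Reads shared between genes were higher in the immunoprecipitate too. Single-gene sense reads had a ratio of 2.09, reads of 2 to 4 genes 2.17, reads of 5 to 19 genes 2.27 and reads of 20 or more genes 2.73. Among the last, reads that match both Srpk1 and Strn3 made up 66.3% in the immunoprecipitate and 40.95% in wild type, with a ratio of 4.43, and the ratio of the others was 1.56. One sequence of the core of histone H3, shared by 10 genes, had 2744 rpm in the immunoprecipitate and 218 rpm in wild type, a ratio of 12.6 (11.99 to 13.2). A second from the ribosomal protein gene Rps15 and its copy Gm8692 had 510 rpm in the immunoprecipitate and 33.9 rpm in wild type, a ratio of 15.1 (13.3 to 17.1). Neither was read in the knockout mili-/-. Both are shown because they had the highest ratios among the 40 most abundant shared sequences of the immunoprecipitate, whose median was 5.199, and were picked out after their values were seen, with positions 1 and 10 in capitals as above.
Histone H3, 10 genes: TtcaagaccGacctgcgcttccagagc
Rps15 and Gm8692: TacaaacccGtgaagcacggccggccc

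Antisense reads stayed rare. piRNA-like reads that matched transcripts in antisense alone were 1.33% of the immunoprecipitate and 0.808% of wild type. As a share of all transcript-matched piRNA-like reads, they were 2.47% in the immunoprecipitate and 3.18% in wild type.

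Within coding transcripts, reads from the 5′ UTR and the coding sequence had higher ratios than those from the 3′ UTR. The 3′ UTR held 65.4% of the placed reads in the immunoprecipitate and 69.0% in wild type, a difference of -3.63 percentage points. The coding sequence held 30.6% in the immunoprecipitate and 27.9% in wild type, and the 5′ UTR held 4.01% in the immunoprecipitate and 3.09% in wild type. The ratios were 2.78 for the 5′ UTR, 2.35 for the coding sequence and 2.03 for the 3′ UTR. Per kb of region, the immunoprecipitate had 10.6 rpm in the 5′ UTR, 9.85 rpm in the coding sequence and 21.3 rpm in the 3′ UTR, against 3.67, 4.22 and 10.6 rpm in wild type.

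Inside single genes this difference was small. In 1672 genes with enough reads in both regions, the coding ratio exceeded the 3′ UTR ratio in 52.7%, with a median quotient of 1.03. The 5′ UTR ratio exceeded the 3′ UTR ratio in 60.1% of 168 genes, with a median quotient of 1.13. Averaged over genes with equal weight, the 3′ UTR share differed by -0.61 points. Genes with over 80% of their wild type reads in the 3′ UTR had a median ratio of 2.09, and genes with over 80% in the coding sequence had 2.41. Base composition moved with region, as the reads held 54.4% G and C in the 5′ UTR, 49.7% in the coding sequence and 44.9% in the 3′ UTR of the immunoprecipitate. Among all single-gene reads the ratio was between 2.06 and 2.10 for reads with 30% to 60% G and C, and 2.73 for reads with 70% or more. Among reads with 50% to 60% G and C, the ratio was 2.35 in the coding sequence and 1.93 in the 3′ UTR.

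**Figure D3:**
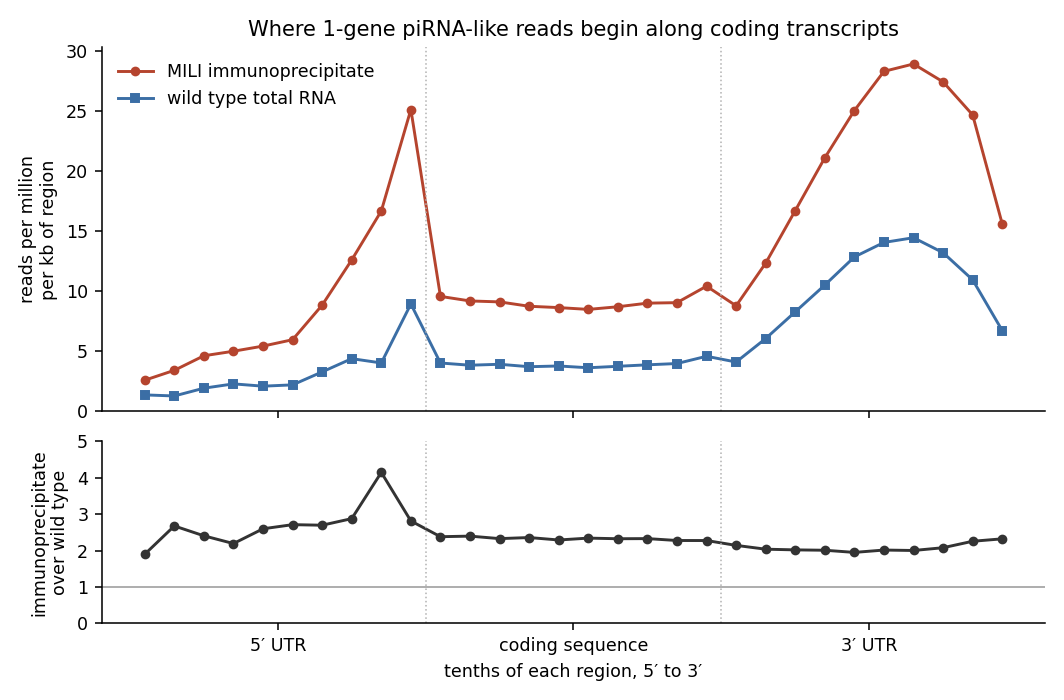
Level of single-gene piRNA-like reads by the bin, 10 per region, in which they begin, over 3348 coding genes, in rpm per kb (top; circles for the MILI immunoprecipitate, squares for wild type total RNA), and the ratio of the libraries (bottom). Both libraries climb inside the 3′ UTR to 28.9 and 14.46 rpm per kb in bin 7 of 10, and the ratio is highest in bin 9 of the 5′ UTR, at 4.15, where Fth1 holds 44.5% of the reads of the immunoprecipitate.

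Both libraries had a similar profile along the transcript. Through the coding sequence the level stayed between 8.49 and 10.4 rpm per kb in the immunoprecipitate and between 3.62 and 4.58 rpm per kb in wild type. It climbed in the 3′ UTR to a peak in bin 7 of 10 and was lower in its last bin, at 15.6 rpm per kb in the immunoprecipitate and 6.73 rpm per kb in wild type. In the 5′ UTR it climbed toward the start codon, to 25.1 rpm per kb in the immunoprecipitate and 8.94 rpm per kb in wild type in the last bin. Fth1 alone held 44.5% of the reads of bin 9 of the 5′ UTR in the immunoprecipitate and 22.1% in wild type, and the ratio there was 4.15 with it and 2.96 over the other genes. Over the whole 5′ UTR, Fth1 held 10.1% of the reads in the immunoprecipitate and 4.00% in wild type, and the ratio of the other genes was 2.60.

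The piRNA-like reads had nearly the same lengths in both libraries. Their mean was 28.07 nt in the immunoprecipitate and 28.14 nt in wild type, a difference of -0.07 nt, and for single-gene reads the means were 28.02 and 28.03 nt in that order. The peak was at 28 nt, with 23.3% of the single-gene piRNA-like reads in the immunoprecipitate and 22.6% in wild type. Gene by gene, the mean was longer in the immunoprecipitate in 52.3% of 4244 genes. At 6203 5′ ends with at least 20 reads in each library, the most frequent length was the same at 77.2% and within 1 nt at 90.9%. The 5′ ends were compared at the full depth of each library, and how far sampling lowers the shares that follow was not tested. Among 1273 genes with at least 200 wild type reads, 45.3% had the same most-used 5′ end in both libraries. Of the wild type reads, 81.1% began at a 5′ end also seen in the immunoprecipitate, the deeper library. Of the reads in the immunoprecipitate, 53.1% began at a 5′ end also seen in wild type.

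Gene-derived reads of 18 to 22 nt had higher ratios than piRNA-sized ones. Single-gene sense reads of 18, 19 and 20 nt had ratios of 3.49, 3.52 and 3.49, against 2.16 at 28 nt. The ratio was 2.71 at 21 nt, 2.38 at 22 nt, 2.12 at 23 nt and 1.78 at 24 nt. Reads of 18 to 20 nt from single genes were 2.62% of the immunoprecipitate, against 0.747% of wild type and 0.825% with NaIO4. In the immunoprecipitate 84.7% of them began with T, against 67.6% in wild type and 29.2% in the knockout mili-/-. How the shorter reads arose was not tested.

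**Figure D4:**
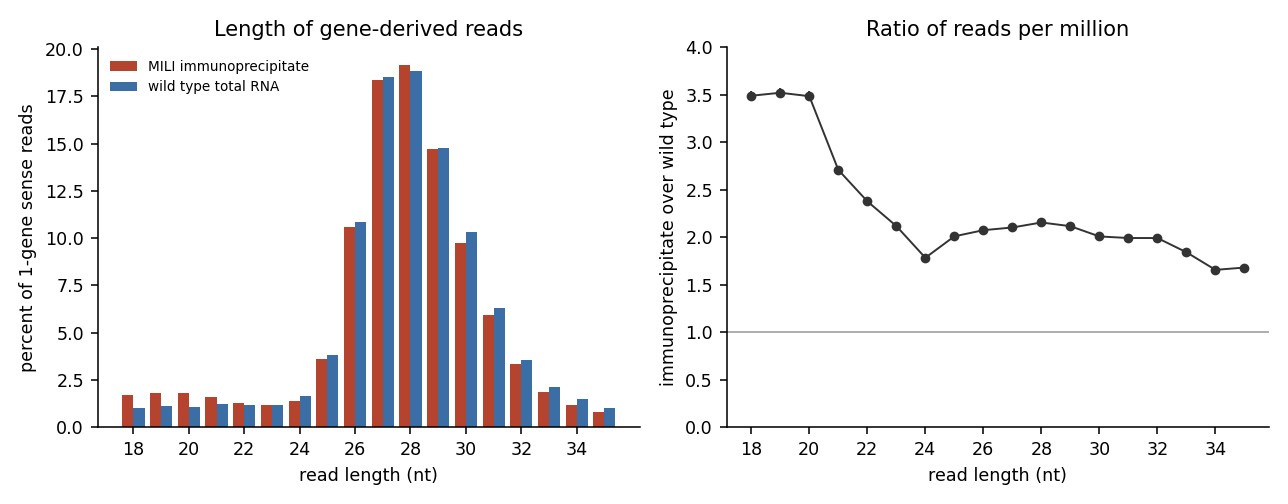
Left, length (nt) of reads that match 1 gene in the sense, as a percent of such reads of 18 to 35 nt, with bars for the MILI immunoprecipitate (left of each pair) and wild type total RNA (right). Right, the ratio of rpm at each length with 95% counting intervals, highest at 18 to 20 nt with 3.49 to 3.52 and at 2.16 for 28 nt.

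The preference for T at position 1 was stronger in the immunoprecipitate. Of all piRNA-like reads, 85.4% began with T in the immunoprecipitate, against 73.0% in wild type and 29.96% in the knockout mili-/-, a difference of 12.4 points between the immunoprecipitate and wild type. Among single-gene reads the shares were 87.3% in the immunoprecipitate and 83.4% in wild type. Over 4244 genes with at least 50 wild type reads, the share was higher in the immunoprecipitate in 68.7%, with a median difference of 2.78 points. Transcripts of the genes compared held 25.02% T on average, and the share at position 1 lay above that of the gene's own transcript in 4737 of 4745 genes in the immunoprecipitate and in 4733 in wild type.

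Reads that begin with T had the highest ratio in every region. Single-gene reads with T first had a ratio of 2.19, with C 1.71, with A 1.61 and with G 1.43. In the 5′ UTR the T ratio was 2.98 and in the 3′ UTR 2.10. Positions 2 and 3 differed as well, toward C and away from G. C at position 3 made up 31.6% of single-gene reads in the immunoprecipitate and 27.8% in wild type. A at position 5 was frequent in both, with 42.02% in the immunoprecipitate and 40.2% in wild type. G at position 3 made up 18.1% in the immunoprecipitate and 22.05% in wild type. At position 2, G made up 31.4% in the immunoprecipitate and 34.8% in wild type.

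A at position 10, the mark of secondary piRNAs, was about as frequent in both libraries. It was found in 28.2% of piRNA-like reads in both libraries, a difference of -0.07 points, which turned to 0.51 once the 10 leading sequences of each library were left out. It was -0.408 points at 26 to 30 nt, -0.455 by distinct sequences and -1.57 without the reads with a tRNA box. Single-gene reads had A in 28.8% at position 10, 28.5% at position 11 and 29.5% at position 12 in the immunoprecipitate. In wild type these shares were 29.1%, 28.0% and 30.1%, so A at position 10 did not stand out from these neighbours. Among reads that do not begin with T, 28.9% had A at position 10 in the immunoprecipitate and 26.7% in wild type. Antisense reads had more of it, 36.7% in the immunoprecipitate and 38.2% in wild type. Reads of 20 or more genes had A at position 10 in 13.4% of cases in the immunoprecipitate and 32.8% in wild type. Among those of them that do not begin with T, the share was 56.9% in the immunoprecipitate and 67.9% in wild type. Among those that begin with T, it was 9.84% in the immunoprecipitate and 24.6% in wild type. Of the reads of 20 or more genes, 1 sequence found in 47 genes alone had 7322 rpm in the immunoprecipitate and 1615 rpm in wild type. Sense and antisense 5′ ends that overlap by 10 nt, the mark of the secondary pathway, stood out in both libraries, with a z-score against the other overlaps up to 25 nt of 7.13 in the immunoprecipitate at equal depth and 13.1 in wild type.

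**Figure D5:**
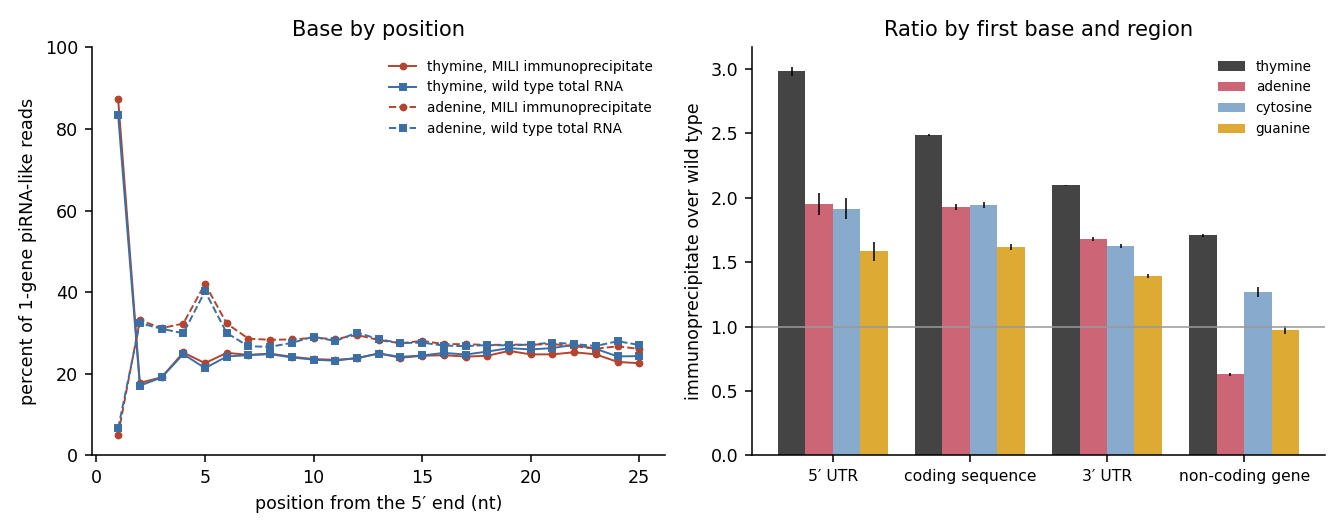
Left, percent of single-gene piRNA-like reads with thymine (solid) or adenine (dashed) at each position from the 5′ end (nt), in the MILI immunoprecipitate (circles) and wild type total RNA (squares); thymine at position 1 stands at 87.3% and 83.4%. Right, ratio of rpm by first base and region with 95% counting intervals; thymine has the tallest bar in each region, from 2.98 in the 5′ UTR to 1.71 in non-coding genes.

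The bases around the reads in the transcript were alike. T followed the 3′ end in 30.1% of reads in the immunoprecipitate and 29.9% in wild type, a difference of 0.12 points. At the next position it was 24.47% in the immunoprecipitate and 24.8% in wild type. Such a T is known from phased piRNA production, in which one cut makes the end of one piRNA and the start of the next. Distances of 1 to 60 nt from a 3′ end to a following 5′ end on the same strand were counted. The most frequent was 1 nt in both libraries, by a small margin over 11 nt. The counts at 1 and 11 nt were 141259 and 131445 in the immunoprecipitate at equal depth, and 37386 and 36313 in wild type. G was scarce just before the 5′ end, at 10.53% in the immunoprecipitate and 10.9% in wild type.

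microRNAs, which AGO proteins carry, were lower almost without exception. Of 205 hairpins with a Mir symbol and a mean of at least 10 rpm, 201 (98%) were at least 2-fold lower, and the median was 28.2-fold lower. Mir741 had 573 rpm in the immunoprecipitate and 31949 rpm in wild type, and Mir871 had 834 rpm in the immunoprecipitate and 29802 rpm in wild type. Both belong to the germ line cluster on the X chromosome. Of 12 listed germ line stem cell microRNAs, 11 were matched by symbol and read in each library. They summed to 2015 rpm in the immunoprecipitate and 91893 rpm in wild type. The other, listed as Mir292a, is named Mir292 in the annotation and is not in the sum. It had 8.40 rpm in the immunoprecipitate and 287 rpm in wild type. The 8 microRNAs of feeder fibroblasts summed to 303 rpm in the immunoprecipitate and 6121 rpm in wild type, with all 8 read in each. Mir10a alone had 37.3 rpm in the immunoprecipitate and 3945 rpm in wild type, 106-fold lower. The others were from 5.17-fold (Mir214) to 15.4-fold (Mir199a-1) lower. Those of blood and endothelium, of meiotic and later germ cells, and of muscle that were matched by symbol summed to at most 18.6 rpm in the immunoprecipitate and 173 rpm in wild type. The blood sum leaves out Mir142, which was listed as Mir142a. It had 1.82 rpm in the immunoprecipitate and 112 rpm in wild type.

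The 4 hairpins with a Mir symbol that were not 2-fold lower were Mir99a, Mir546, Mir3473f and Mir6236. Mir99a had 217 rpm in the immunoprecipitate and 220 rpm in wild type, a ratio of 0.984 (0.931 to 1.04), with 18.9 rpm after NaIO4. Its reads were of mature size, 99.2% of them at 20 to 24 nt in the immunoprecipitate and 98.9% in wild type. Its relative Mir99b was 53.9-fold lower. Mir546 had 37.4 rpm in the immunoprecipitate and 20.2 rpm in wild type (1.85), and only 9.86% of its reads in the immunoprecipitate were of 20 to 24 nt. It had 37.2 rpm after NaIO4 and no read in the knockout mili-/-. Mir3473f had 12.6 rpm in the immunoprecipitate and 18.03 rpm in wild type (0.697), and Mir6236 had 27.6 rpm in the immunoprecipitate and 43.7 rpm in wild type (0.631). Mir10b was 5.53-fold lower and Mir143 9.09-fold lower. Hairpins annotated under other symbols are not in these counts, and some of them were higher. Of these Gm26318 had 410 rpm in the immunoprecipitate and 198 rpm in wild type (2.07), and Gm22355 had 18.8 rpm in the immunoprecipitate and 2.87 rpm in wild type (6.55), with 6.33% of its reads in the immunoprecipitate at 20 to 24 nt.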

How the data were processed

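Small RNA libraries were made from 0.5 µg of RNA by the Illumina protocol and sequenced on an Illumina instrument, per the labels' protocols. Each deposited file lists distinct read sequences with the number of times each was read, so the unit is a raw read count without normalization by the authors. Bowtie and the build mm10 are named in the submitters' processing notes, and the sources used here do not give adapter trimming or length filters. The wild type library held 7905850 reads, 92.6% of them of 18 to 35 nt, and the immunoprecipitate 26292082, with 96.0%.

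Reads of 18 to 35 nt were matched without mismatch to GENCODE M21 transcripts (GRCm38) with bwa 0.7.19-r1273, in both orientations, keeping up to 3000 places. No genome was used, so introns, intergenic clusters and nuclear tRNA genes were not placed. Reads were given in order to microRNA, Mir5099 (reads holding any 16 bases of its transcript), rRNA, mitochondrial, snRNA and snoRNA, and other small RNA classes. Other reads of 25 to 31 nt were called piRNA-like. Genes were set by sense reads matching 1 gene, with a mean of at least 10 rpm, and called at 2-fold. Regions came from the longest coding transcript, and the 5′ end of a read set its region. Positions along a transcript used genes with regions of at least 100 nt, cut into 10 equal bins.

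Shares have Clopper-Pearson intervals, ratios log-scale intervals of the counts, and medians over genes order-statistic intervals, all at 95%. Comparisons at equal depth used 7322408 reads drawn at random from the immunoprecipitate. With 1 library per group no test was run. Code was tested on simulated data. The libraries compared, the gene lists and the tRNA boxes were chosen with earlier results of these data known. The genes named are those among the 12 with the most reads in the immunoprecipitate (1 is not reported here), the 10 with the highest and the 10 with the lowest ratio, and members of the lists past 2-fold. List members nearer to 1 and the olfactory and vomeronasal genes were named after their values were seen. Tables were handled with pandas 2.3.3 and pyarrow 21.0.0 in Python 3.11.15, statistics with scipy 1.17.1 and numpy 2.4.6, and plots with matplotlib 3.10.9.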

Additional observations from a re-analysis of the deposited data

How the results depend on the processing

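No paired analysis was possible because each group had 1 library, and leaving out a library leaves no comparison. Depth limits genes with few wild type reads and sequences seen once, and no alternative stands in for a second pull-down.

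Scaled to all reads of 17 to 41 nt, the piRNA-like ratio was 1.82 and the microRNA ratio 0.0458. With the 10 leading sequences of each library left out, the piRNA-like ratio was 1.503, the microRNA ratio 0.0534, the difference in mean length -0.0740 nt, in T at position 1 12.2 points, in A at position 10 0.511 points (reversed from -0.0731) and in the antisense share -0.676 points. With each distinct sequence counted once at equal depth, these were 1.06, 0.267, -0.0152 nt, 3.802, -0.455 and -0.566, and the 3′ UTR difference was -4.43 points. These counts were scaled to the distinct sequences of each library. The median gene ratio was then 1.36 over 7316 genes, with 939 genes higher and 47 lower. The list medians were 1.49 (piRNA pathway), 1.44 (stem cell), 1.30 (housekeeping), 1.33 (translation repression), 1.38 (ubiquitin ligase) and 1.07 (long non-coding), and reversed at 0.898 (histone), 0.990 (ribosomal protein) and 0.835 (feeder). At 26 to 30 nt the piRNA-like ratio was 1.83 and the differences -0.0397 nt in length, 10.4 points in T at position 1, -0.408 in A at position 10 and -0.666 in the antisense share.

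Scaled to single-gene reads, the median gene was at 1.07, with 145 genes higher and 110 lower. The list medians were 1.23 (piRNA pathway), 1.21 (stem cell), 1.31 (histone), 1.22 (ribosomal protein), 1.27 (housekeeping), 1.10 (translation repression), 1.06 (ubiquitin ligase) and 1.04 (long non-coding), and reversed at 0.649 (feeder). Scaled to microRNA reads, the ratio of piRNA-like reads was 39.7 and the median gene 50.8, with 4736 genes higher and 4 lower. A mean of at least 2 rpm gave 6549 of 10263 genes higher, 78 lower and a median of 2.28. A mean of at least 50 rpm gave 689 of 1090 genes higher, 6 lower and a median of 2.16. At 1.5-fold 37 genes were lower, and at 4-fold 188 were higher and 14 lower. Sharing reads over several genes gave 44 of 6113 genes lower and a median of 2.27. With each gene weighted equally the differences were -0.606 points in the 3′ UTR share, 3.48 in T at position 1 and, reversed, 0.0109 nt in length.

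Chosen after seeing the data, leaving out unmatched reads with a tRNA box gave 1.85 for the piRNA-like ratio, 9.92 points for T, -1.57 for A at position 10 and -0.0300 nt for length, and folds against the median gene gave 98 higher and 140 lower. Of 81 alternatives, 62 moved a value past its counting interval or a count by over 1.5 times, 6 reversed it and 13 did neither. The cause was not tested for any.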
